A study of Mus musculus with 6 samples.

Results

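The genes described here code for the SR proteins, the hnRNP proteins and the kinases that phosphorylate SR proteins. Members were the rows of the count table that carry a protein-coding symbol starting with Srsf or Hnrnp, together with Tra2a, Tra2b, Ptbp1, Ptbp3, Clk1 to Clk4, Srpk1, Srpk2, Son, Srrm1 and Srrm2. This gave 44 of 24379 rows: 11 SR protein genes, 5 SR-related genes, 22 hnRNP genes and 6 kinase genes. RNA was sequenced from RAW264.7, a macrophage-like line derived from a mouse tumour, as 3 libraries titled HFCS 140 mM (high-fructose corn syrup, a mixture of free fructose and glucose) and 3 libraries titled WT, called control here. The source names give 170 mM for the same HFCS libraries, so the dose is uncertain. All 6 samples carry 18 h as their time, and the sources used here do not give what the control wells received. Nothing in the labels tells separate cultures from repeat libraries of one culture, so the p-values rest on differences among these libraries that may be technical in part or whole.

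SR proteins carry RNA recognition motifs and a tail of arginine-serine repeats, and they mostly promote the use of the exons they bind. hnRNP proteins coat nascent transcripts and often act against them, by masking exons or splice sites. SRPK kinases phosphorylate the SR tail in the cytoplasm and so let the proteins enter the nucleus, while CLK kinases add further phosphates there and release SR proteins from the nuclear speckles where they are stored. Many of these factors limit their own amount by splicing in an exon with an early stop codon, a poison exon, whose transcript is then destroyed by nonsense-mediated decay. Macrophages depend on such factors when they process inflammatory transcripts.

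Annotated decay transcripts were common among the members, which matters for reading the values, since a count per gene adds productive and decaying transcripts together. GENCODE M21 lists a nonsense-mediated decay transcript for 32 of the 44 members (72.7%), against 3452 of 11639 tested protein-coding genes (29.7%). Members have more annotated transcripts, and among genes with at least 8 of them the shares were 22 of 27 members (81.5%) and 1791 of 3314 genes (54%). All 6 kinase genes and all 5 SR-related genes have one, as do 9 of 11 SR protein genes and 12 of 22 hnRNP genes. In 3 members, Srsf3, Tra2b and Tra2a, a decay transcript of the best support level holds an internal exon that no coding transcript uses and that contains its stop codon. The 30 bases around that stop are shown for these 3 because they mark the exon by which the genes can switch off their own product, with the stop codon in capitals (mm10, 5′ to 3′ on the gene's strand). The exons span chr17:29039454-29039909 in Srsf3 (456 bases, plus strand), chr16:22258986-22259261 in Tra2b (276 bases, minus strand) and chr6:49252803-49253108 in Tra2a (306 bases, minus strand).
Srsf3: cttctcaccaccctcTGAatctgcattagc
Tra2b: aagctcaggaataagTGAagctgaaatttg
Tra2a: agaagattggtcagaTAGaagcacttgaat
The windows lie at chr17:29039470-29039499, chr16:22259169-22259198 and chr6:49252953-49252982. Reads on these exons are not separated in the table, so whether they were used more or less was not tested.

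Each library held 13108485 to 15340255 counts. At that depth 3 counts, the floor for a gene not counted, equal 0.190 to 0.223 CPM (the usual CPM scale, a gene's count relative to the TMM-scaled size of its library, and a floor for counting error only). The groups were parted on the first principal component, with 70.0% of the variance. Control replicate 1 lay apart from the other control libraries on the second, at 29.3 against -14.2 and -13.4. Values of members that it moved most are therefore also given without it, or as a range over the other settings. No pair of libraries in a group was alike within sampling noise (chi-square over its degrees of freedom, 2.71 to 18.6). The summed level of 10 macrophage markers was 2521 to 2630 CPM in HFCS and 1957 to 2031 CPM in control libraries, with 7 of 9 tested markers higher and 2 lower. All markers with a row for other cell types had counts, but their sums were low: 7.65 to 8.62 against 4.04 to 5.62 CPM for 3 T cell genes, up to 4.87 CPM in both groups for 4 B cell genes, 1.01 to 1.34 against 0.807 to 1.04 CPM for 4 neutrophil genes, 0.850 to 1.78 against 0.208 to 0.881 CPM for 4 fibroblast genes, and 0 to 0.196 against 6.90 to 8.74 CPM for 2 epithelial genes. The T cell sum is nearly all Lck, which was called higher at 0.73 with Cd3e and Cd4 at or near 0, and the epithelial sum is nearly all Cldn4, which was called lower at -6.34. The part of these markers in the results was not tested. Directions rest on the labels. Akr1b3, the aldose reductase gene, a textbook target of the osmotic stress response, had 195 to 217 CPM in the HFCS-labelled and 7134 to 7864 CPM in the control-labelled libraries, the reverse of what that response gives in a medium with added sugar. Whether labels were exchanged was not tested, and an exchange would turn every direction given here and swap the higher and lower shares, so libraries are called by their labels.

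Splicing factor genes moved in both directions, by less than 2-fold in every case. Of the 43 members with enough counts to test, 14 had higher and 11 had lower counts with the HFCS label, while 18 missed the threshold (adjusted p under 0.05, quasi-likelihood test of edgeR). That is 58.1% called, where 44.9% of all 14360 tested genes were called, 32.6% higher against a background of 22.4% and 25.6% lower against 22.5%. The libraries of the groups did not overlap for 26 members, 14 higher and 12 lower, where 54.5% of all tested genes did not overlap. The median log2 fold change of the members was -0.037, beside -0.0045 for all tested genes, and this near-zero value changed sign with library-size scaling (0.043), without a filter on low counts (0.010) and without control replicate 1 (0.025) or HFCS replicate 3 (0.0095). Only 9 called members passed 1.5-fold, and the called members' median size of change was 0.39 on the log2 scale, beside 0.58 for all called genes. Every tested member had group means of at least 32.5 CPM, while all tested genes reach down to the filter at a minimum count of 10. Neither the sizes nor the shares called, here and by group below, were matched for level. Without control replicate 1 the counts were 16 higher and 13 lower, with all 25 calls kept. Calls over all tested genes also rose in both directions without that library, from 3223 higher and 3224 lower with all libraries. The added member calls thus came with a rise among genes at large. Whether members gained more calls than other genes was not tested. In bulk RNA a lower level in all cells and the loss of the transcript from some cells cannot be told apart.

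**Figure D1:**
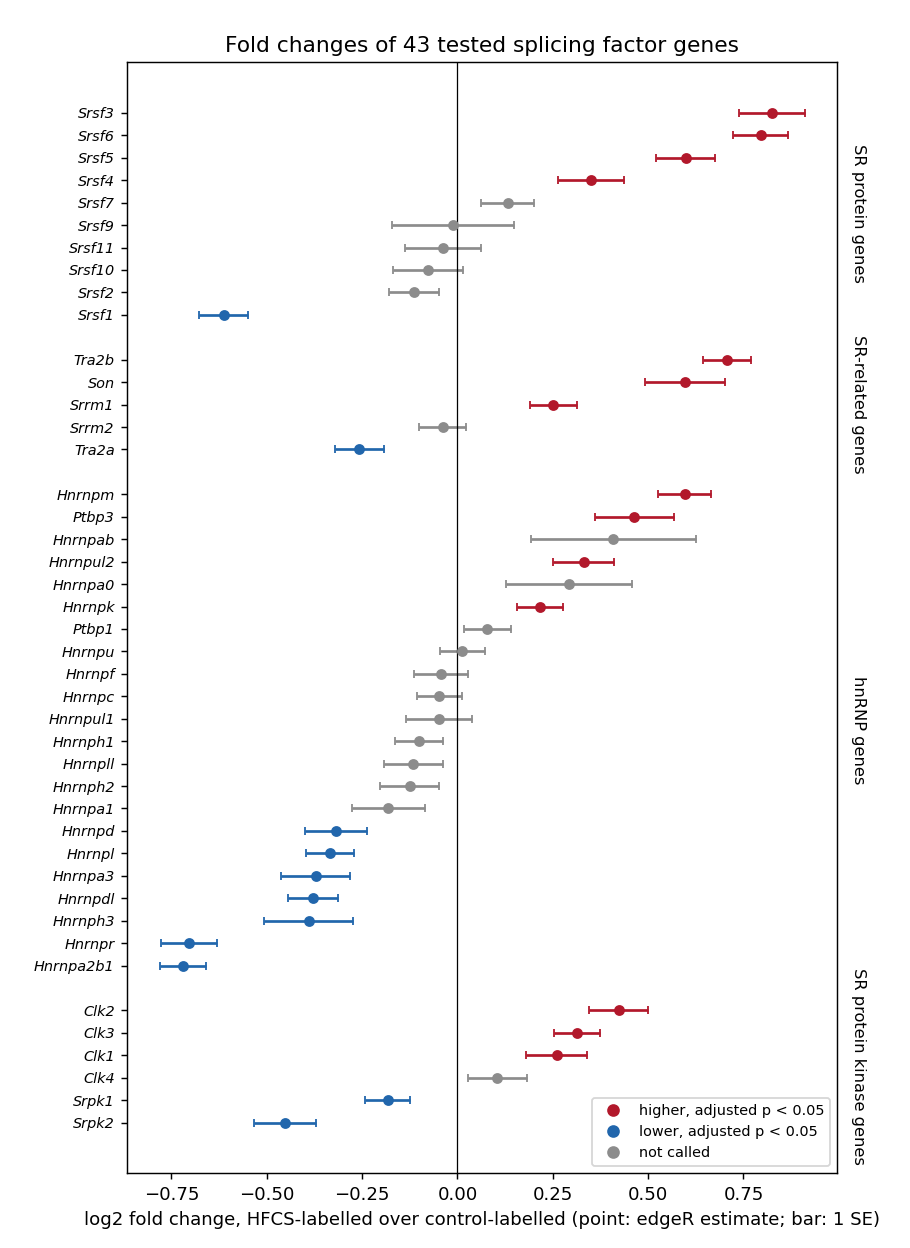
Log2 fold change of each tested member (HFCS-labelled over control-labelled libraries, 3 each), with bars of 1 SE from edgeR, in 4 groups by role and coloured by the call at an adjusted p of 0.05. Srsf3 lies highest at 0.83 and Hnrnpa2b1 lowest at -0.72, and each of the 4 groups holds genes on both sides of 0.

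Among SR protein genes, Srsf3, Srsf6, Srsf5 and Srsf4 were higher and Srsf1 was lower in the HFCS-labelled libraries (50% called, against 44.9% of all tested genes). The other 5 tested genes did not pass. The median of the 10 tested genes was 0.06 on the log2 scale (0.03 to 0.15 over the other settings that tested 10 genes). Without a filter on low counts it was 0.17, but over 11 genes, with Srsf12 added. Srsf3 (ENSMUSG00000071172, mm10 chromosome 17, 29032628 to 29043373, plus strand) codes for the smallest SR protein, which also hands spliced messages to the export machinery. It had 264, 267 and 310 CPM in HFCS replicates 1 to 3 and 143, 164 and 167 CPM in the control libraries. Every HFCS library lay above every control library, and the log2 fold change was 0.83 ± 0.09 (SE, n = 3 each, edgeR adjusted p = 3.46e-05). Srsf6 (ENSMUSG00000016921, chromosome 2, 162931528 to 162937121, plus strand), which binds exonic enhancers through its paired recognition motifs, had 205, 202 and 224 CPM against 113, 125 and 125 CPM. The groups were parted by more than their spread, at 0.80 ± 0.07 on the log2 scale (edgeR adjusted p = 1.36e-05).

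Srsf5 and Srsf4 are close relatives of Srsf6. Srsf5 (ENSMUSG00000021134, chromosome 12, 80945504 to 80950507, plus strand) had 365, 355 and 308 CPM in HFCS and 237, 225 and 217 CPM in control libraries, a log2 fold change of 0.60 ± 0.08 (edgeR adjusted p = 1.45e-04). The HFCS values were higher throughout, with replicate 3 the lowest of them. Srsf4 had 42.8, 41.1 and 40.6 CPM against 34.0, 30.3 and 33.3 CPM, a log2 fold change of 0.35 ± 0.09 (edgeR adjusted p = 0.00717). Its libraries did not overlap either, but 43% of its exon bases lie under the opposite-strand gene Gm12992, and with no stated strand setting the reads of the pair cannot be told apart.

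Srsf1 moved the other way. Srsf1 (ENSMUSG00000018379, chromosome 11, 88047373 to 88053755, plus strand), among the first SR proteins described, binds purine-rich enhancers and is among the factors that hold their own level by decay. It had 278, 297 and 298 CPM in HFCS and 453, 455 and 427 CPM in control libraries. All HFCS values were below all control values, with a log2 fold change of -0.61 ± 0.06 (edgeR adjusted p = 3.55e-05).

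The SR protein genes that were not called lay close to 0 or varied between libraries. Srsf7, a relative of Srsf3, was at 0.13 (edgeR adjusted p = 0.146) and was called higher with library-size scaling (edgeR adjusted p = 0.0280). Srsf2, which drives exon inclusion and resides in speckles, was at -0.11, Srsf10, a repressor when dephosphorylated, at -0.08 and Srsf11 at -0.04, all with overlapping groups. Without control replicate 1, which had 249 CPM against 334 and 318 CPM in the other control libraries, Srsf11 was called lower at -0.15 (edgeR adjusted p = 0.0381). Srsf9, the closest relative of Srsf1, had 93.7, 86.8 and 64.6 CPM in HFCS and 103, 72.2 and 71.2 CPM in control libraries, so its spread within groups exceeded its difference of -0.01. Without control replicate 1 that difference was 0.19 (edgeR adjusted p = 0.193), and that of Srsf10 was -0.16 (edgeR adjusted p = 0.0667). Srsf12 was too low to test, with 3 counts in HFCS replicate 2, 1 count in control replicate 2 and 0 in the other libraries.

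Of the SR-related genes, Tra2b, Son and Srrm1 were higher, Tra2a was lower and Srrm2 was not called. That is 80% called, against 44.9% of all tested genes, in a list of only 5 genes. Tra2b and Tra2a code for relatives of the fly sex-determination factor Transformer 2, which bind GA-rich enhancers. Tra2b (ENSMUSG00000022858, chromosome 16, 22244549 to 22266005, minus strand) had 284, 285 and 305 CPM in HFCS and 176, 175 and 185 CPM in control libraries. Every HFCS library was above every control library, at 0.71 ± 0.06 on the log2 scale (edgeR adjusted p = 1.34e-05). Tra2a (ENSMUSG00000029817, chromosome 6, 49243924 to 49264033, minus strand) had 161, 163 and 168 CPM against 189, 207 and 193 CPM, a log2 fold change of -0.26 ± 0.06 (edgeR adjusted p = 0.00765). The groups did not overlap, but the call was lost without HFCS replicate 1 (edgeR adjusted p = 0.0549). Both genes hold a poison exon of the kind printed above.

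Son and Srrm2 code for the large proteins that form the core of nuclear speckles. Son (ENSMUSG00000022961, chromosome 16, 91647506 to 91679221, plus strand) had 499, 484 and 538 CPM in HFCS and 275, 369 and 361 CPM in control libraries, a log2 fold change of 0.60 ± 0.10 (edgeR adjusted p = 9.82e-04). Control replicate 1 was the lowest library, and the HFCS libraries also exceeded the other controls. Over the 14 other settings the log2 fold change of Son was 0.48 to 0.68, called in each. Srrm2 had 1210, 1233 and 1231 against 1191, 1297 and 1286 CPM, with overlapping groups and a difference of -0.04 ± 0.06 (edgeR adjusted p = 0.638). Srrm1, a coactivator that bridges SR proteins and the spliceosome, had 400, 410 and 397 CPM against 324, 350 and 340 CPM, at 0.25 ± 0.06 (edgeR adjusted p = 0.00684).

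**Figure D2:**
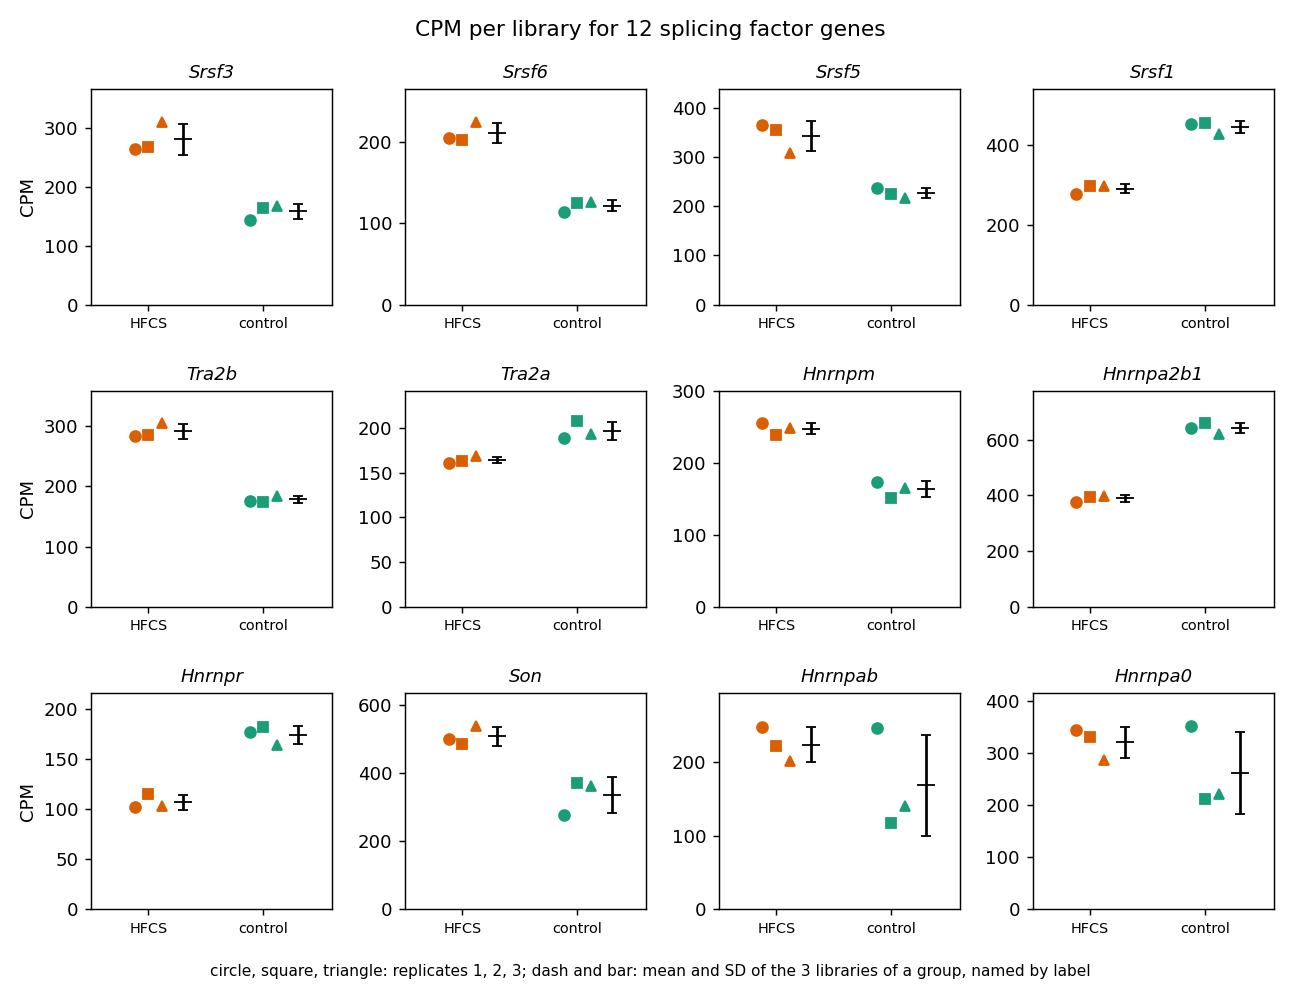
CPM of 12 members in each library (vertical axis from 0), with HFCS-labelled libraries at left and control-labelled libraries at right in every panel, symbols for replicates 1 to 3, and the mean with SD of each group. Groups do not overlap in the first 10 panels, while control replicate 1 (circle) reaches the HFCS range for Hnrnpab and Hnrnpa0.

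Among the kinase genes, Clk1, Clk2 and Clk3 were higher, Srpk1 and Srpk2 were lower, and Clk4 was not called. That is 83.3% called, against 44.9% of all tested genes, in a list of only 6 genes. Clk2 (ENSMUSG00000068917, chromosome 3, 89164795 to 89176921, plus strand) had 118, 120 and 105 CPM in HFCS and 90.7, 82.7 and 82.9 CPM in control libraries, a log2 fold change of 0.42 ± 0.08 (edgeR adjusted p = 0.00123). Clk3 had 161, 166 and 161 CPM against 132, 131 and 131 CPM, at 0.31 ± 0.06 (edgeR adjusted p = 0.00165), and 15.2% of its exon bases are shared with Edc3 on the other strand. Clk1, whose own transcript is known to be held in the nucleus with introns retained, had 280, 285 and 281 CPM against 206, 254 and 246 CPM. Its log2 fold change was 0.26 ± 0.08 (edgeR adjusted p = 0.0222), and the call was lost when HFCS replicate 2 was left out (edgeR adjusted p = 0.0595). Control replicate 1 was its lowest library, and the log2 fold change ran from 0.18 to 0.34 over the 14 other settings. Clk4, the closest relative of Clk1, had 107, 111 and 105 CPM against 90.1, 105 and 106 CPM. Its groups overlapped, and the difference of 0.10 ± 0.08 was not called (edgeR adjusted p = 0.301). Without control replicate 1, its lowest library, it was 0.04 (edgeR adjusted p = 0.648).

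Srpk2 (ENSMUSG00000062604, chromosome 5, 23503264 to 23684617, minus strand) had 87.7, 90.9 and 99.5 CPM in HFCS and 115, 136 and 129 CPM in control libraries, a log2 fold change of -0.45 ± 0.08 (edgeR adjusted p = 0.00122). Every HFCS library was below every control library. Srpk1 differed less, with 172, 181 and 176 CPM against 196, 203 and 202 CPM and a log2 fold change of -0.18 ± 0.06 (edgeR adjusted p = 0.0284). That call was lost in 7 of 14 other settings, among them library-size scaling (edgeR adjusted p = 0.181), no filter on low counts (edgeR adjusted p = 0.140) and the omission of any 1 library other than control replicate 1 (edgeR adjusted p = 0.0734 to 0.164).

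Of the 22 hnRNP genes, 7 were lower, 4 higher and 11 not called, with a median log2 fold change of -0.07. That is 50% called, 31.8% lower and 18.2% higher, against 44.9%, 22.5% and 22.4% of all tested genes, so the total was near the background. Library-size scaling moved that median to 0.01 and left the counts at 7 lower and 4 higher. Hnrnpa2b1 (ENSMUSG00000004980, chromosome 6, 51460932 to 51469894, minus strand), which packages nascent RNA and directs RNA to the cytoplasm, had the smallest adjusted p of all members. It had 375, 395 and 397 CPM in HFCS and 642, 658 and 622 CPM in control libraries. The groups lay far apart against their spread, at -0.72 ± 0.06 on the log2 scale (edgeR adjusted p = 9.41e-06). Hnrnpr (ENSMUSG00000066037, chromosome 4, 136310942 to 136359447, plus strand), a relative of Syncrip, had 102, 115 and 103 CPM against 177, 182 and 164 CPM, a log2 fold change of -0.70 ± 0.07 (edgeR adjusted p = 3.83e-05). Syncrip itself was not called (-0.16, edgeR adjusted p = 0.223).

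A further 5 hnRNP genes were lower in the HFCS-labelled libraries. Hnrnpdl, a close relative of Hnrnpd, had 170, 173 and 169 CPM against 229, 229 and 207 CPM, at -0.38 ± 0.07 (edgeR adjusted p = 9.48e-04). Hnrnpl, which binds CA repeats, had 298, 308 and 298 CPM against 399, 377 and 364 CPM, at -0.33 ± 0.06 (edgeR adjusted p = 0.00156). No HFCS library reached a control library in either gene. Hnrnpd, the AU-rich element binding protein AUF1, was lower by the same test at -0.32, as were Hnrnpa3 at -0.37 and Hnrnph3 at -0.39. Without control replicate 1 Hnrnpd was at -0.23 and Hnrnph3 at -0.26, both still called. Hnrnph3 lost its call without HFCS replicate 1 (edgeR adjusted p = 0.0516) or HFCS replicate 3 (edgeR adjusted p = 0.0865). Hnrnpa3 has 28 near-identical copies elsewhere in the annotation, 27 of them pseudogenes, so reads of the gene and its copies may have been split. The same holds for 5 other called members: Srsf3 has 4 such copies (1 of them coding, the longest match covering 49.5% of the transcript), Tra2b has 4 (25.5%), Hnrnpk has 2 (46.4%), and Srsf5 (51.7%) and Hnrnpr (8.11%) have 1 each.

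Hnrnpm, Ptbp3, Hnrnpul2 and Hnrnpk were the hnRNP genes that were higher. Hnrnpm (ENSMUSG00000059208, chromosome 17, 33646233 to 33686860, minus strand) is known in macrophages for slowing the splicing of Il6 transcripts. It had 255, 239 and 248 CPM in HFCS and 174, 152 and 166 CPM in control libraries, with no overlap, at 0.60 ± 0.07 (edgeR adjusted p = 7.89e-05), and 14.7% of its exon bases are shared with March2. Ptbp3, a polypyrimidine tract binding protein of blood cells, had 342, 338 and 390 CPM against 216, 282 and 279 CPM, at 0.46 ± 0.10 (edgeR adjusted p = 0.00429). Its lowest library was control replicate 1, and the call stood without it. Over the 14 other settings the log2 fold change of Ptbp3 was 0.35 to 0.54. Hnrnpul2 had 203, 195 and 190 CPM against 174, 146 and 146 CPM, at 0.33 ± 0.08 (edgeR adjusted p = 0.00623). Hnrnpk, which binds C-rich RNA, had 514, 540 and 541 CPM against 472, 450 and 452 CPM, at 0.22 ± 0.06 (edgeR adjusted p = 0.0140), and lost its call on omission of HFCS replicate 2 (edgeR adjusted p = 0.0556) or control replicate 3 (edgeR adjusted p = 0.0520).

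The most abundant hnRNP messages per length were not called. Over the 6 libraries, Hnrnpa1 had a mean of 164, Hnrnpa0 of 109 and Hnrnpc of 101 CPM per kb of annotated exon, the highest 3 levels of the 44 members, followed by Srrm2 at 96.7 and Hnrnpf at 91.6 CPM per kb. Hnrnpa1, the best known exon-masking hnRNP, had 485, 512 and 455 CPM in HFCS and 637, 495 and 514 CPM in control libraries. The high control value was that of replicate 1, and the difference of -0.18 ± 0.10 was not called (edgeR adjusted p = 0.148). Without that library it was -0.06 (edgeR adjusted p = 0.449). The gene has 9 near-identical pseudogenes. Hnrnpc, which binds uridine tracts, had 436, 442 and 415 CPM against 443, 449 and 444 CPM, with every HFCS value lower but a difference of only -0.05 ± 0.06 (edgeR adjusted p = 0.553). Hnrnpu, a nuclear scaffold protein, was at 0.01, Ptbp1 at 0.08, Hnrnpf at -0.04, Hnrnph1 at -0.10, Hnrnph2 at -0.13 and Hnrnpul1 at -0.05, and their groups overlapped. Without control replicate 1, Hnrnph2 was at -0.05 and Hnrnpul1 at 0.05. Hnrnpll, which skips exons of the Ptprc transcript in lymphocytes, was at -0.12 and was called lower without control replicate 1 (-0.17, edgeR adjusted p = 0.0464).

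Hnrnpab and Hnrnpa0 depended on control replicate 1 most. Hnrnpab (ENSMUSG00000020358, chromosome 11, 51600100 to 51606847, minus strand) had 249, 222 and 202 CPM in HFCS and 247, 118 and 141 CPM in control libraries. Control replicate 1 lay 0.94 above the mean of the other control libraries on the log2 scale. With all libraries the difference was 0.41 ± 0.22 and not called (edgeR adjusted p = 0.150), and without that library it was 0.79 (edgeR adjusted p = 4.74e-06). It was also called without a filter on low counts (edgeR adjusted p = 0.0339), and 29.1% of its exon bases are shared with Phykpl on the other strand. Hnrnpa0, which binds AU-rich elements, had 344, 331 and 287 CPM against 352, 211 and 222 CPM, at 0.29 ± 0.17 (edgeR adjusted p = 0.176) with control replicate 1 and 0.57 (edgeR adjusted p = 1.62e-05) without it.

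Control replicate 1 was the library that most often stood away from its group in these genes. Its distance from the mean of the other control libraries exceeded 0.25 on the log2 scale for 12 of 43 members, 7 higher and 5 lower, against 0 to 4 members for each other library. The members above were Hnrnpab, Hnrnpa0, Srsf9, Hnrnph3, Hnrnpa1, Hnrnpul1 and Hnrnpd, and those below were Son, Srsf11, Ptbp3, Srsf10 and Clk1. Thus 6 of the 7 above and 1 of the 5 below, Ptbp3, are hnRNP genes, which make up 22 of the 43 tested members. Over all genes with enough counts control replicate 1 also stood apart. Chi-square over its degrees of freedom was 18.6 and 15.6 against the other control libraries, and 4.02 between those. The log2 distance was not computed for all tested genes, so whether 12 of 43 members exceeds their share is not known. What set this library apart was not tested.

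**Figure D3:**
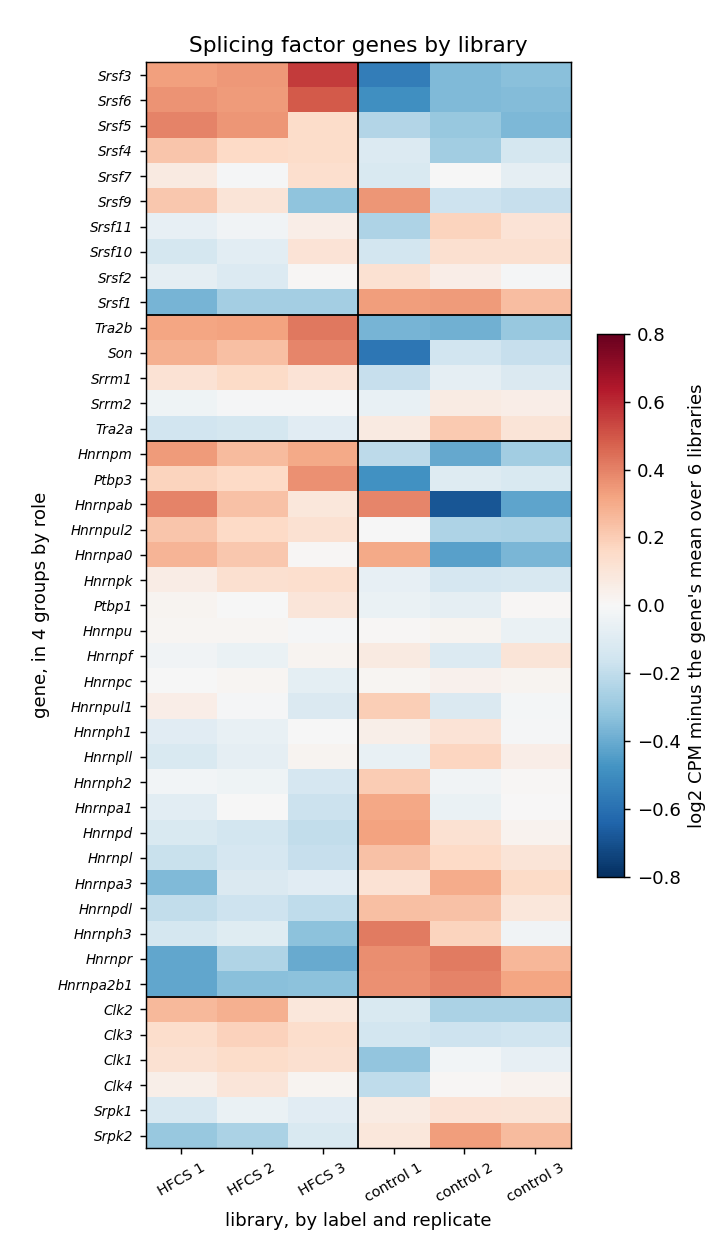
Log2 CPM of the 43 tested members minus each gene's mean over the 6 libraries, with genes in 4 groups by role in rows and libraries in columns. Control replicate 1 differs from the other control libraries for Hnrnpab, Hnrnpa0, Son and Ptbp3, among 12 members that lie over 0.25 from them.

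Related genes changed relative to each other within libraries, in a measure that no scaling of libraries can alter. The pairs were chosen with the fold changes known, so their ratios are given as a description. The count ratio of Tra2b to Tra2a was 1.76, 1.75 and 1.81 in HFCS and 0.933, 0.842 and 0.958 in control libraries, so the mean ratio was 1.95 times as high with the HFCS label. The counts of the 4 Clk genes over those of both Srpk genes came to 2.57, 2.51 and 2.37 against 1.67, 1.69 and 1.71. Mean ratios for these were 1.77 ± 0.0337 against 0.911 ± 0.0607 and 2.48 ± 0.104 against 1.69 ± 0.0235 (mean ± SD, n = 3 each).

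Ratios were also parted between groups for Srsf3 to Srsf7 (2.33 ± 0.135 against 1.44 ± 0.0857), Srsf6 to Srsf4 (5.07 ± 0.393 against 3.74 ± 0.390) and Ptbp3 to Ptbp1 (0.997 ± 0.0451 against 0.764 ± 0.108). The ratio of Hnrnpa2b1 to Hnrnpa1 was lower in every HFCS library, at 0.806 ± 0.0573 against 1.18 ± 0.163. Hnrnpd to Hnrnpdl was 0.995 ± 0.0243 against 0.954 ± 0.0690, with overlapping groups that parted without control replicate 1, when every HFCS ratio was the higher. Srsf1 to Srsf9 overlapped at 3.67 ± 0.854 against 5.56 ± 1.03, because HFCS replicate 3 at 4.62 exceeded control replicate 1 at 4.39, and was lower in every HFCS library once that control was left out.

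**Figure D4:**
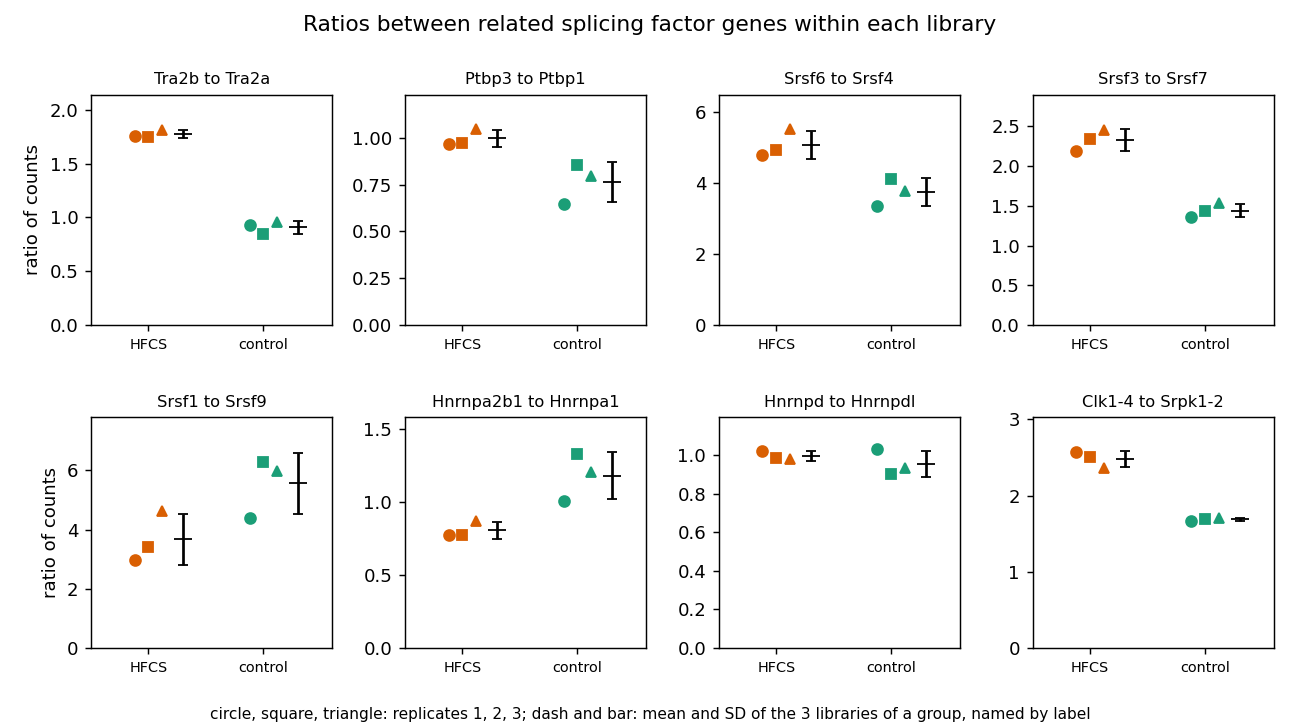
Count ratios between related members in each library (vertical axis from 0), with HFCS-labelled libraries at left and control-labelled libraries at right, symbols for replicates 1 to 3, and the mean with SD of each group. Groups are parted for 6 of the 8 ratios, and the Tra2b to Tra2a ratio lies at 1.75 to 1.81 in the HFCS and 0.842 to 0.958 in the control libraries.

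Summed over families, 3 of the 4 groups were higher in every HFCS library than in any control library. SR protein genes together had 2092 to 2171 CPM in HFCS and 1915 to 2025 CPM in control libraries, and SR-related genes 2554 to 2639 against 2154 to 2398 CPM. The kinase sum was 926 to 954 against 831 to 910 CPM. The hnRNP sum was 6172 to 6282 against 6251 to 6833 CPM, with overlap, and control replicate 1 held the upper end. All 44 members summed to 11823 to 11910 CPM in HFCS and 11472 to 11733 CPM in control libraries, without overlap, and took 1.21 to 1.23% of counts in HFCS and 1.12 to 1.14% in control libraries. These sums weight long and abundant messages most. The CPM sums used TMM scaling only, and for the kinases and for all 44 members the gaps between groups were small. Upper-quartile scaling moved the members' median log2 fold change from -0.037 to -0.069. Whether the sums stayed parted under it was not tested. The shares of counts, in contrast, used library totals without TMM scaling. Under library-size scaling, genes at large also lay higher in HFCS, with a median of 0.075 on the log2 scale (-0.0045 with TMM). The gap in shares includes that general shift and is no separate support for the gap in sums. How much of it the shift makes up was not tested.

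Promoter windows are shown for 4 called members because they stand for both directions: the higher 2 and lower 2 with the smallest adjusted p among members with a single window in the table. Windows run from 250 bases before to 50 bases after the start (RefSeq, GRCm38.p6, 5′ to 3′ on the gene's strand), and 40 of 44 members were matched. Capitals mark the GC box GGGCGG and the CCAAT box CCAAT on either strand, 2 motifs that do not overlap each other here. Tra2b lies at chr16:22265956-22266255, Srsf6 at chr2:162931258-162931557, Srsf1 at chr11:88047123-88047422 and Hnrnpdl at chr5:100039173-100039472. The Hnrnpdl window lies wholly within the gene as listed in the count table (100033577 to 100039664, minus strand). Its marked boxes are thus inside the listed gene span, not before its listed start.
Tra2b: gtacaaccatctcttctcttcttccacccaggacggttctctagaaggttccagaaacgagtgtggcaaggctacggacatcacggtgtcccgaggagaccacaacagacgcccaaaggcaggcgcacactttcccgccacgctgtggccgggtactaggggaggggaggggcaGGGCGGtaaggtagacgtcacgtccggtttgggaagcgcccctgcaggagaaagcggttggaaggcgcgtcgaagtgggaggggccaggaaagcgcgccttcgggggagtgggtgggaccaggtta
Srsf6: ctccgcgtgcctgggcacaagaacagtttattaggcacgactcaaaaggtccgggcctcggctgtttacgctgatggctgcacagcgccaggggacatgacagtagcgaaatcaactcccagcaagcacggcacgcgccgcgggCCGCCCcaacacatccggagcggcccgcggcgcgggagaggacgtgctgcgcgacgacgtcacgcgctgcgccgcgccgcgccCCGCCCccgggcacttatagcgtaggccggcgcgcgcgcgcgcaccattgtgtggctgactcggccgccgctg
Srsf1: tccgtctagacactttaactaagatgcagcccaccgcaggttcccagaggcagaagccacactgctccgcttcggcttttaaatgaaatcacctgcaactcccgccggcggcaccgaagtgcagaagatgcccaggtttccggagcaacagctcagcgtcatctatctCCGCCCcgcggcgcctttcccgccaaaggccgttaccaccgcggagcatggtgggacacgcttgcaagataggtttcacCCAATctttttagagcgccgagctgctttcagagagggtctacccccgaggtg
Hnrnpdl: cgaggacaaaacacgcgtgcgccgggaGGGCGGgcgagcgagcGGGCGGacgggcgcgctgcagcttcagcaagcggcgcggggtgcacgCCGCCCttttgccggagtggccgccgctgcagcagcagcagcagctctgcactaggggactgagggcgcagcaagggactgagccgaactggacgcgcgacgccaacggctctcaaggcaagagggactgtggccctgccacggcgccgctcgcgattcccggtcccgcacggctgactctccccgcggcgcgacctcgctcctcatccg
All 4 windows hold a GC box, and the Srsf1 window also holds a CCAAT box.

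The windows of the members were rich in G and C. A GC box was found for 33 of 40 members (82.5%), 67% of tested genes and 38.2% of all genes in the promoter table, and the median GC content was 65.2%, 60.5% and 52.8% in the same order. Among called members it was found for 7 of 11 higher and 10 of 11 lower genes, and it was found for 15 of 17 members not called. CCAAT was found for 23 members (57.5%, against 43.2% of tested genes), in 5 higher and 7 lower ones. The TATA box TATAAA was found for 5 members (12.5% against 8.52%), namely Srsf3, Hnrnpm, Srpk2, Srsf2 and Hnrnpab, and the ETS core CCGGAAG for 7 (17.5% against 20.8%). A gene was counted if any of its windows held the motif, so genes with several windows could match more easily. The number of windows per gene was not compared between members and other genes. Each match is a run of letters on either strand and is no evidence of binding.

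Other genes of the splicing machinery, in lists picked for their function, were called in both directions. Of 20 proteins of the U1 and U2 particles and of splice site choice, 6 were higher and 2 lower (40% called, against 44.9% of all tested genes). Sf3b4 (log2 fold change 0.90), a U2 subunit, U2af1 (0.56), which reads the AG of the splice site, and Puf60 (0.54) had the smallest adjusted p by edgeR. Of 14 Sm and LSm ring proteins, 1 was higher, Snrpb (0.47), and 4 were lower, among them Lsm2 (-0.42) and Snrpd1 (-0.30), which is 35.7% called. Of 14 tri-snRNP proteins, 2 were higher, including Sart3 (0.45), and 3 lower, including Eftud2 (-0.24) and Snrnp200 (-0.20), again 35.7%. The called shares of these 3 lists were thus below that of all tested genes.

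The list of 43 other splicing regulators had 11 higher and 16 lower genes, or 62.8% called beside 44.9% of all tested genes. Fubp1, which binds single-stranded DNA upstream of Myc as well as RNA, had 193 against 420 CPM on average, a log2 fold change of -1.13 and the one change past 2-fold among the 106 genes of these lists. Luc7l3 (-0.63) and Mbnl2 (-0.77) followed by adjusted p. Over all 106 genes of these lists and of mRNA surveillance, 23 were higher and 27 lower (47.2% called, near the 44.9% of all tested genes), and their median log2 fold change was -0.00091.

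**Figure D5:**
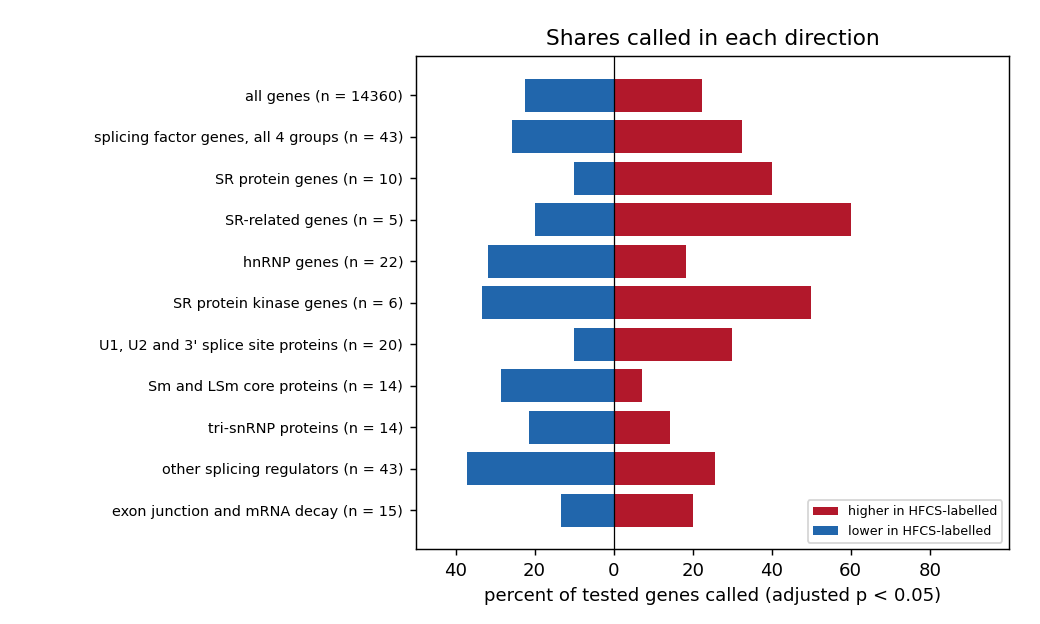
Percent of tested genes called higher (right) or lower (left) in the HFCS-labelled libraries at an edgeR adjusted p under 0.05, for all genes, the 4 groups of members and 5 lists of related genes, with the number tested in brackets. All genes stand at 22.4% higher and 22.5% lower, and all 4 groups together at 32.6% and 25.6%.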

How the data were processed

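RNA sequencing libraries of 6 RAW264.7 samples were compared, 3 per group, with groups taken from the titles. The authors deposited integer read counts for each gene. Per the submitters' processing notes, CASAVA, HISAT2 2.0.5, featureCounts 1.5.0-p3 and genome build mm10 were used by the authors. These notes name no annotation release, strand setting or filter. Symbols, biotypes and exon lengths came from GENCODE M21, which held 24369 of 24379 identifiers, 23705 with identical coordinates. Near-identical copies were other genes matching a member's longest coding transcript over at least 200 bases at 95% identity (BLAST+ 2.17.0). Exons of 16 members overlap another listed gene, 9 of them called, and 13 members have near-identical copies, 6 of them called.

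Genes were filtered with filterByExpr (minimum count 10), leaving 14360, scaled by TMM and compared with edgeR 4.0.16 (R 4.3.3), glmQLFit and glmQLFTest, with no covariate and Benjamini-Hochberg adjustment over all tested genes. SEs were derived from the fold change and F statistic. CPM used the TMM-scaled sizes. Genes given by library were, in each group of members, the called genes with the 4 smallest adjusted p in each direction, all kinases and the 3 highest levels per kb. Any further members given by library were chosen after their values were seen, as were the pairs for ratios. Members and lists were chosen with earlier results of these data known. Mbnl3 and 8 cell type markers had no row in the table and were not analysed here.

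The test was checked on simulated data for this comparison (13944 genes tested, 200 changed): 56.5% of 1.5-fold, 86.0% of 2-fold, 87.8% of 3-fold and 100% of 4-fold changes were recovered, and 17 of 176 calls were false. That false share is larger than the threshold of 0.05. Far fewer genes were changed in the simulation than were called in the data (6447 of 14360), so these rates need not hold for the data. Alternatives were 3 other scalings, DESeq2 1.42.0, limma-voom (limma 3.58.1), 2 other filters, the replicate number as a block and the omission of each library.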

Additional observations from a re-analysis of the deposited data

How the results depend on the processing

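Of the 25 called members, 20 were called in all 14 alternatives, and none of the 25 changed direction in them. Members near 0 that were not called did change sign in at least 1 alternative: Srsf9, Srsf10, Srsf11, Srrm2, Hnrnpc, Hnrnpf, Hnrnpu and Hnrnpul1. The counts of members, 14 higher and 11 lower, stayed within 1.5 times in every alternative. The members' median log2 fold change of -0.037 was -0.069 with upper-quartile scaling, 0.043 with library-size scaling and -0.017 to 0.025 with 1 library left out. With no filter on low counts it was 0.010, over 44 members because Srsf12 was added. The cause of the other shifts was not tested beyond the shift that library-size scaling gives all genes (median 0.08). Library-size scaling also turned 60.2% of all calls higher, where TMM gave 3223 of 6447, and members to 15 higher and 10 lower. With the replicate number as a block, 16 members were higher and 11 lower, adding Hnrnpa0 (0.33, edgeR adjusted p = 0.00749) and Hnrnpab (0.47, edgeR adjusted p = 0.00173), and the counts of genes higher in HFCS and genes lower in HFCS were 3619 and 3533 in place of 3223 and 3224. Whether the numbers pair the samples is not given by the labels. Deviations of same-numbered libraries from their group means correlated at 0.167, -0.0640 and 0.191. HFCS replicates 1 and 3 correlated best with the control library of their own number, and HFCS replicate 2 with control replicate 1. With 3 libraries per group such correlations cannot decide the question. Changes under 1.5-fold lie below the sizes at which the simulated data were tested.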

Other observations

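Genes of the exon junction complex and of nonsense-mediated decay, the pathway that destroys the poison-exon transcripts of many splicing factors, mostly lay near 0. Of 15 tested, 3 were higher, 2 lower and 10 not called (33.3% called, against 44.9% of all tested genes), with a median log2 fold change of 0.08. The paralogues Upf3a and Upf3b moved apart: Upf3a averaged 43.8 CPM with the HFCS label and 23.1 CPM with the control label, a log2 fold change of 0.92 (edgeR adjusted p = 0.00125), and Upf3b 56.8 and 68.8 CPM, a log2 fold change of -0.28 (edgeR adjusted p = 0.0103). Rbm8a, a core subunit of the exon junction complex, was higher at 0.75 and Smg8 at 0.30, while the helicase gene Upf1 was lower at -0.34. The kinase gene Smg1 was at 0.02 and Upf2 at 0.00, with overlapping groups.

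Decay transcripts are annotated for 12 of 14 higher and 10 of 11 lower members, and for 10 of 18 members not called. Members not called also have fewer annotated transcripts, with a median of 8.5 against 11.5 for higher and 10 for lower members, and the part of that number was not tested.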
